A study of Caenorhabditis elegans with 2 samples.

Results

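The X chromosome of Caenorhabditis elegans carries 276 annotated transfer RNA (tRNA) genes, and their occupancy by the transcription factor SNPC-4 in whole young adult worms is described here gene by gene. The genes were taken from the Ensembl annotation of assembly WBcel235 (ce11) as those of biotype tRNA on X. They are 276 of the 634 tRNA genes and of the 46926 genes annotated in all. A further 336 tRNA genes lie on chromosomes I to V. All 276 were matched by WormBase identifier to a RefSeq entry, and 273 of them have an amino acid given as product. No selenocysteine tRNA gene was among the products on X.

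SNPC-4 was mapped by chromatin immunoprecipitation followed by sequencing (ChIP-seq) after shearing by sonication. The single group consisted of 2 biological replicates of strain OP179, whose genotype is unc-119(ed3) III with the transgene wgIs179, at the young adult stage, with both sexes pooled and the age unknown. The integrated transgene adds SNPC-4 with GFP and FLAG at its C-terminus, and the labels give the antibody by its target, snpc-4. Whole organisms were used, so each value is a mixture over all tissues, and no untreated or untagged group was compared: a possible control experiment is named and was not analysed here. Occupancy therefore means a peak entry of these lists, and the part of unspecific signal in it was not tested.

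The files were lists of peaks, so the sequencing depth is unknown, and no test between groups was possible. After thresholding by irreproducible discovery rate (IDR), the list held 2345 entries on ce11. The lists given to IDR, which by their labels hold peaks and background, had 30000 entries for the pooled data, 27573 for replicate 1 and 30000 for replicate 2. A gene was counted when the nearest summit lay within 200 bp of its annotated 5′ end, and the signal given for a gene in a list is that of its nearest entry. The nearest was not the strongest entry within 200 bp at 8 X tRNA genes in replicate 1, 12 in replicate 2, 7 in the pooled list and none in the thresholded list. The signal of an entry is the authors' own peak caller value, on a scale that is not stated, and signals are compared only within a list. Values of both replicates are given side by side, and their sizes are not compared with each other. Replicates were compared through the 2345 strongest entries of each replicate list, called the strong entries below. The intervals after shares are Wilson 95% intervals, which cover only the counting of genes. Genes that share a summit or a sequence are not independent, and genes are not replicates.

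tRNA genes are transcribed by RNA polymerase III from promoters inside the gene. The general factor TFIIIC binds an A box near the start of the gene and a B box near its end, and brings TFIIIB to the DNA just upstream of the start. Transcription ends in a run of T after the gene. SNPC-4 is a subunit of the small nuclear RNA activating complex, SNAPc, which acts on promoters upstream of small nuclear RNA (snRNA) genes. In worms SNPC-4 is also known from the spliced leader RNA genes and from the piRNA genes of chromosome IV. The X chromosome is present in a double dose in hermaphrodites and in a single dose in males.

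The sequences that the results turn on come from the RefSeq genome on ce11. Annotated tRNA genes are in capitals and flanks are in lower case. The first are the loci with the highest signals among the tRNA genes of X, each with 1 summit between 2 genes. The locus of M02F4.t2 and M02F4.t1 (X:3035976-3036235, plus strand shown) holds a glutamate gene on the minus strand and a glycine gene on the plus strand. The locus of F15G9.t1 and F15G9.t2 (X:9743589-9743818, plus strand) holds 2 alanine genes in tandem.
M02F4.t2/M02F4.t1: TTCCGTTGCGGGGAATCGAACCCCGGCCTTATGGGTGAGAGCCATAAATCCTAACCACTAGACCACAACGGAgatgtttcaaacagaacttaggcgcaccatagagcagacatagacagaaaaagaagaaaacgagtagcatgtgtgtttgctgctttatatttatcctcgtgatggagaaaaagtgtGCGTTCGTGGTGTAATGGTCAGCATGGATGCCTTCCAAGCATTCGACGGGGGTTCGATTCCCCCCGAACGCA
F15G9.t1/F15G9.t2: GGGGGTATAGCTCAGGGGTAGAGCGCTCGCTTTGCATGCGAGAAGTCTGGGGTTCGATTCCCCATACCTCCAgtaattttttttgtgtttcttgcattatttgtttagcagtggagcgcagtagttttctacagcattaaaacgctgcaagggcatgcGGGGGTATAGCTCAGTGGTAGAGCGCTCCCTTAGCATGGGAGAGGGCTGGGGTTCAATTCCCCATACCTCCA

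The next set shows genes with identical bodies and unlike signals. ZK899.t1 (X:9467709-9467860, minus strand) had the highest signal among the proline genes of the largest identical set, and C48C5.t1 (X:8969678-8969829, plus strand) the lowest signal at its nearest pooled entry. C39D10.t2 (X:7898288-7898439, minus strand) is a glutamate gene with the same body as M02F4.t2 and no entry within 200 bp in any list. Each is printed with 60 bases before and 20 bases after the gene.
ZK899.t1: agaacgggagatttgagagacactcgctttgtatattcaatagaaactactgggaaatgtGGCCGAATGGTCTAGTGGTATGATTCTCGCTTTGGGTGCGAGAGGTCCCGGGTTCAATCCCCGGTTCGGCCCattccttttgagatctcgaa
C48C5.t1: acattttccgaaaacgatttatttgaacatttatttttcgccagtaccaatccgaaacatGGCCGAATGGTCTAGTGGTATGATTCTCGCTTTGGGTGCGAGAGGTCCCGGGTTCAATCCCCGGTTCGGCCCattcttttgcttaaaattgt
C39D10.t2: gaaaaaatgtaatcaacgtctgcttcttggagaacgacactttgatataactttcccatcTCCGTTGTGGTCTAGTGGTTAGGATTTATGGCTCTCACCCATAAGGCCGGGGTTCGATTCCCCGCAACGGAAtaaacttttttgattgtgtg

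The last set holds the phenylalanine genes F32A6.t1 (X:5319385-5319497, minus strand), which had a summit, and K05G3.t1 (X:16503144-16503256, minus strand), which had no entry within 200 bp. It also holds 2 genes that were strong in both replicates and absent from the thresholded list, the leucine gene W02H3.t1 (X:11095633-11095754, plus strand) and the threonine gene R01H5.t1 (X:12563748-12563859, plus strand). Each is printed with 40 bases before the gene.
F32A6.t1: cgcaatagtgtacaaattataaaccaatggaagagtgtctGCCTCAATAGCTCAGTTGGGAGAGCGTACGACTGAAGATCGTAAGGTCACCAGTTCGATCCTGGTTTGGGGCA
K05G3.t1: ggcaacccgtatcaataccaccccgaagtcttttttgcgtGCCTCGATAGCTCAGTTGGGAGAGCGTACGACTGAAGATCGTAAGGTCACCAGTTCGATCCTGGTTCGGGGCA
W02H3.t1: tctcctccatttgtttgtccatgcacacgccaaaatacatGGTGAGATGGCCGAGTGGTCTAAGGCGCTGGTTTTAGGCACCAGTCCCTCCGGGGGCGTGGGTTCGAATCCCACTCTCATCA
R01H5.t1: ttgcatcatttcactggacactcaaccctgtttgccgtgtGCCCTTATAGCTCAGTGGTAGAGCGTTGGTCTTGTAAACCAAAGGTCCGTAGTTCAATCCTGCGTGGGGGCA

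In the thresholded list, 122 of the 276 X tRNA genes had a summit within 200 bp, a share of 44.2% (38.5 to 50.1). The same rule counted 2.25% of the X genes of other kinds, 4.17% of all X genes and 4.83% of all nuclear genes. The strong entries of replicate 1 lay at 129 genes (46.7%) and those of replicate 2 at 147 genes (53.3%), a mean of 50% ± 4.61 (SD, n = 2). X genes of other kinds were counted at 2.38% and 2.63% in the replicates. In each list the tRNA genes of X therefore stood far above the other X genes in share, by more than the spread of the replicates, with no test made.

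These 122 genes were served by 109 summits, which made up 36.8% (31.5 to 42.5) of the 296 thresholded entries on X. Their median signal was 71.0, against 59.5 for the other 187 entries on X. They were not the highest of the chromosome. The best of them was at rank 9 of the X entries, and 2 of the 10, 27 of the 50 and 50 of the 100 strongest X entries lay at tRNA genes. The highest X signal, 544, belonged to an snRNA gene, the class that SNAPc is best known for. Of the other kinds, 1 of 3 snRNA genes, 5 of 33 small nucleolar RNA genes (15.2%), 2 of 74 microRNA genes, 97 of 2520 other noncoding RNA genes (3.85%) and 24 of 2731 protein-coding genes (0.879%) had a summit. None of 162 piRNA genes and none of 178 pseudogenes on X did, for which the upper Wilson limits are 2.32% and 2.11%. The noncoding RNA genes include some close to a tRNA gene, so these counts may share summits.

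Signals at the 122 genes ran from 42.9 to 177.7, with a median of 71.2 and quartiles of 56.3 and 95.7. The lowest signal anywhere in the thresholded list was 41.5, so the weakest tRNA genes lay just above the end of the list. The members just inside the distance limit were ZK154.t2, an asparagine gene with its summit 177 bp downstream of the 5′ end, F46G11.t1, a proline gene at -156 bp, and Y7A5A.t1, a serine gene at -151 bp. Those just outside were C28G1.t5 at -203 bp, which has no product given, the glycine gene ZK154.t3 at -206 bp and the valine gene C16H3.t2 at 215 bp. Negative distances are upstream of the 5′ end in the direction of transcription.

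The glutamate gene M02F4.t2 and the glycine gene M02F4.t1 shared the strongest summit, with signal 177.7 in the thresholded list, 77.6 in replicate 1 and 103.6 in replicate 2. The pair lies outside protein-coding genes, and the summit fell in the spacer printed above, 70 bp upstream of the former and 47 bp upstream of the latter. The alanine genes F15G9.t1 and F15G9.t2 lie in an intron of him-4, which encodes the extracellular matrix protein hemicentin, on the strand of that gene. They shared a summit with signal 166.4, and 86.3 and 92.4 in the replicates. Both loci were high in both replicates.

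Of genes with a summit to themselves, the lysine gene W03G11.t1 led with a signal of 146.1, and its replicates had 56.8 and 78.4. Its nearest tRNA neighbour was 112627 bp away, and the summit lay 8 bp into the gene. The tyrosine gene R11.t1 had 143.4, with 90.0 in replicate 2, and in replicate 1 22.5 at the nearest entry and 62.7 at the strongest within 200 bp. The lysine gene C33G3.t2 had 142.2, with 61.0 and 68.3 in the replicates. The phenylalanine gene F32A6.t1, in an intron of sto-2, had 131.6, with 49.6 and 80.4. The arginine gene T06H11.t2, in an intron of unc-58 on the opposite strand, had 129.9, with 70.8 and 46.7. The next were the isoleucine gene C42D8.t1 at 125.7 (65.7 and 61.5) and the methionine gene C02F12.t1 at 123.5 (49.4 and 76.2), both with a summit of their own. The serine gene C53C7.t1 had 119.7 (48.6 and 66.5) at a summit shared with C53C7.t2. Of the 12 highest, 5 lie in introns of protein-coding genes. Single-copy sequence is limited at some of them: 72.2% of the 32-base words around M02F4.t1, 71.9% around F15G9.t2, 72.7% around C53C7.t1 and 65.1% around T06H11.t2 have no second copy in the genome, so reads there are less certainly placed.

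**Figure D1:**
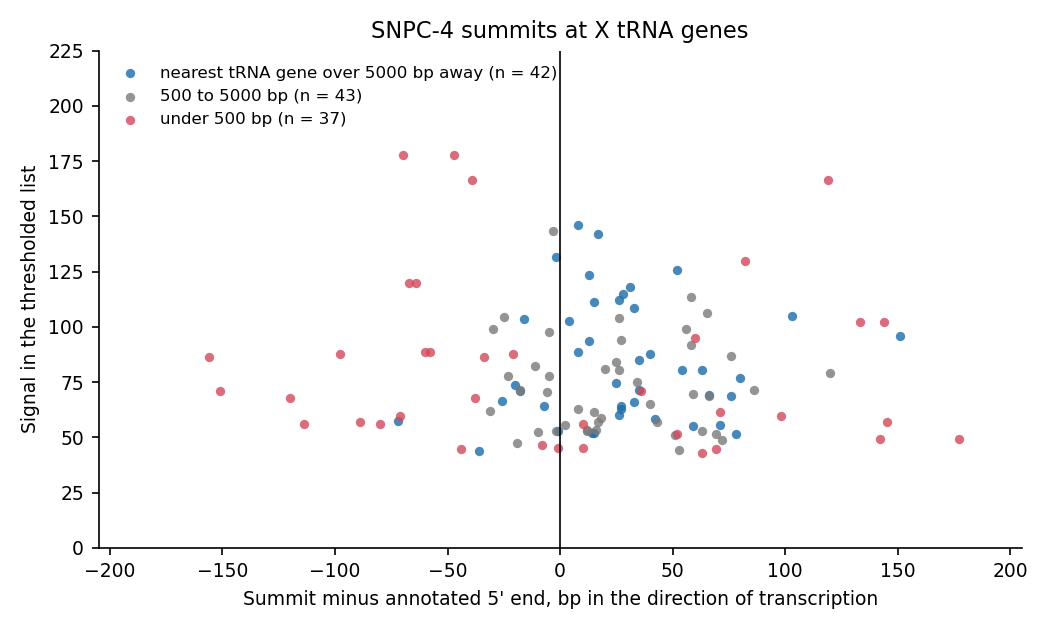
Signal in the thresholded list (vertical axis, authors' units) against the distance of the summit from the annotated 5′ end (horizontal axis, bp, positive into the gene) for the 122 X tRNA genes with a summit; colours give the distance to the nearest other tRNA gene. Summits of isolated genes lie mostly inside the gene, while those of genes under 500 bp from another spread from -156 to 177 bp.

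Summits gathered in and around the gene. Across the 122 genes the median position was 17.5 bp downstream of the 5′ end, with quartiles at -14.75 and 58 bp. The summit lay inside the gene for 64 genes (52.5%), upstream for 43 (35.2%) and beyond its 3′ end for 15 (12.3%). Among the strong entries the median was 21 bp in replicate 1 and 24 bp in replicate 2, a mean of 22.5 ± 2.12 (SD, n = 2). The genes are short, with a median length of 72 bp, and 61 of the 109 entries (56.0%) had the width of 380 bp, so a summit does not separate the A box from the upstream side.

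Summit position differed with the distance to the next tRNA gene. At the 42 genes with a summit whose nearest tRNA 5′ end was over 5000 bp away, the median was 26.5 bp with quartiles at 8 and 49.5 bp, and 69.0% of the summits lay inside the gene. Among the 37 genes with a neighbour under 500 bp away, which were served by 24 summits, the median was -21 bp and 21.6% lay inside. A shared summit is counted here once for each of its genes, and one between divergent genes is upstream of both. How much of the difference comes from this counting was not tested. At autosomal tRNA genes with so close a neighbour the median was -11 bp and 18.2% lay inside. In all, 13 summits were near 2 tRNA genes each, with 5′ ends 115 to 319 bp apart, and 96 were near 1. Of the shared summits 12 lay between the 2 genes, and the genes were divergent at 8, tandem at 3 and convergent at 2. The pair carried the same product at 10 of them. The other 3 joined glutamate with glycine (M02F4), glutamate with serine (rte-5 and F02D10.t2, signal 102.2) and aspartate with serine (R03E1.t2 and R03E1.t1, signal 88.7). Where 1 summit serves 2 genes, the lists do not tell which of them it belongs to.

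Every one of the 20 amino acids given as product on X had at least 1 gene with a summit. The share was highest for aspartate, with 9 of 12 genes, and asparagine, with 4 of 6. Isoleucine and alanine followed with 7 of 13 each, and glutamate with 12 of 23. It was 50% for valine (7 of 14), tyrosine (4 of 8), threonine (7 of 14), serine (9 of 18), methionine (4 of 8), lysine (9 of 18) and glycine (10 of 20). Proline (9 of 20) and histidine (3 of 9) were lower. The lowest shares were those of arginine (8 of 27), leucine (5 of 17), cysteine (2 of 7), glutamine (4 of 15), tryptophan (1 of 5) and phenylalanine (1 of 6). With so few genes per product no order among them is read from these counts. The replicates moved several of them: the strong entries held 7 glutamine genes in replicate 1 and 3 in replicate 2, 5 and 10 leucine genes, 2 and 5 cysteine genes, and 12 and 9 arginine genes. Aspartate had 6 and 9 genes, and alanine 8 and 9.

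Among products with at least 4 genes with a summit, the median signal was highest for alanine at 103.7, followed by glutamate at 92.7 and glycine at 84.1, and lowest for asparagine at 55.7 and glutamine at 56.8. The best genes of the remaining products, with replicates 1 and 2 in that order, were as follows. The aspartate gene F52H2.t1, in an intron of the amino acid transporter gene aat-3, reached 113.7 (35.8 and 72.5). The leucine gene C04A11.t1 had 108.4 (58.0 and 32.4). The threonine gene F25F6.t2 had 106.1 (49.0 and 51.3). The proline gene ZK899.t1 had 105.0 (48.8 and 49.8). These 4 had strong entries in both replicates. The glutamine gene H08J11.t3, in an intron of the adherens junction gene ajm-1, had 95.1 (51.5 and 47.2). The asparagine gene F52H2.t2 had 86.9 (52.4 and 35.6), and the valine gene F59C12.t3 had 83.9 (57.2 and 31.7). The best histidine gene, C06G1.t1, reached 64.1 (29.97 and 31.2). The lowest best signal was 56.9, at a summit shared by the cysteine genes K01A12.t4 and K01A12.t5. K01A12.t5 had 29.5 and 29.97 in the replicates and was a strong entry in both. K01A12.t4 had no entry within 200 bp in replicate 1. In replicate 2 K01A12.t4 had 2.87 at the nearest entry and 29.97 at the strongest within 200 bp.

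**Figure D2:**
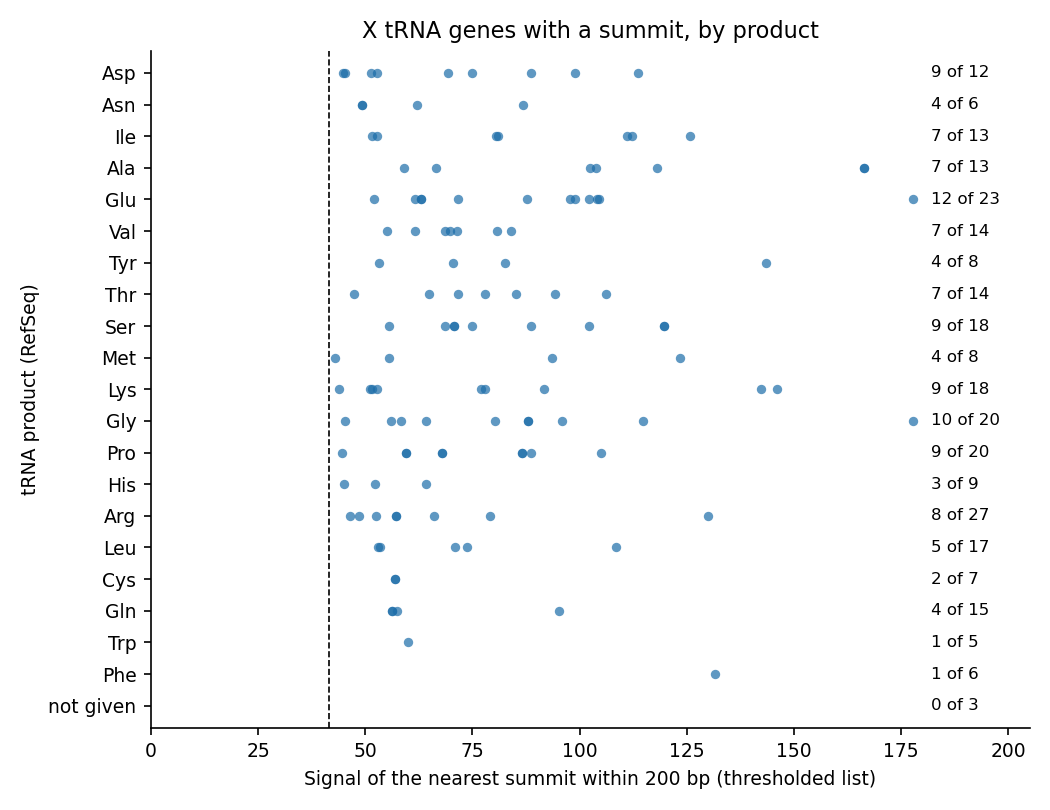
Signal of each X tRNA gene with a summit in the thresholded list (horizontal axis, authors' units), grouped by tRNA product (rows); the counts on the right are genes with a summit of all X genes of the product, darker points are genes that coincide, and the dashed line is the lowest signal of the list, 41.5. Glycine and glutamate reach 177.7 at a shared summit, and each of tryptophan and phenylalanine has 1 point.

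On X 8 genes have names other than a clone number, and these were singled out after their values were seen. The tryptophan gene sup-7, known for its amber suppressor alleles, had a summit with signal 59.9, and 38.9 and 27.0 in the replicates, and was the best of the 5 tryptophan genes. The glutamate genes rte-5 (102.2) and rte-1 (71.6) also had one. The suppressor genes sup-28 (6.56 and 17.1 in the replicates) and sup-33 (14.6 and 17.1), both in trk-1, had entries in the lists given to IDR only, as did rtw-5, with 8.01 at the nearest entry in replicate 2 and no entry within 200 bp in replicate 1. The gene sup-21 had no entry within 200 bp in any list. The glutamate gene rte-3 had 33.7 and 21.7 in the replicates and was a strong entry in both, without a thresholded summit.

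Genes with identical bodies differed in whether a summit was counted. The 276 genes have 106 distinct sequences, of which 73 occur once on X, and 20 sequences occur 5 or more times and account for 162 genes. Of these 20 sets, 19 held both genes with a summit and genes without one. At a share of 44.2% over all X tRNA genes, most sets of 5 or more would be mixed in any case. Nothing about sequence is therefore read from this count. In the largest set, 13 identical proline genes, 7 had a summit, from 44.5 at R04D3.t3 to 105.0 at ZK899.t1. The 6 without one include ZK678.t3 and C48C5.t3. Their pooled signals of 41.3 and 40.4 lay just under the lowest thresholded signal of 41.5. The nearest pooled entry of C48C5.t1 had a signal of 5.08, with 3.89 in replicate 1 and no entry within 200 bp in replicate 2. A stronger pooled entry of 40.4 also lay within 200 bp, and it is the entry of C48C5.t3, a neighbour of the same sequence 179 bp away. Y7A5A.t3 and Y7A5A.t2, of this set too, had no pooled entry, and had 14.6 and 3.96 in replicate 1 alone. As printed above, ZK899.t1 and C48C5.t1 agree in every base of the body and differ in their flanks. Around ZK899.t1 84.9% of the words are single copy and around C48C5.t1 83.8%. The part of flanks and of read placement in these values was not tested.

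Among the 12 identical glutamate genes 7 had a summit, from 52.1 at F01G12.t1 to 177.7 at M02F4.t2. C39D10.t2, with 86.5% single-copy words, was one of 3 with no entry in either replicate list. In the next set, of 11 glycine genes, 6 had a summit. A body identical to that of an X gene was also found on an autosome for 185 of the 276 genes. The nearest entry of the pooled list can be a weaker one than the thresholded summit: for ZK899.t1 it was 101 bp upstream with signal 33.6, while the thresholded summit lay 103 bp downstream.

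The phenylalanine genes were the exception among the sets. Their 5 identical genes had no thresholded summit, while F32A6.t1 had signal 131.6. A comparison of F32A6.t1 with K05G3.t1 as reference, counting from 1 at the gene's 5′ end, gave the substitutions G6A and C67T in 73 bases. These positions face each other in the acceptor stem of a tRNA, where the G and C of the reference and the A and T of F32A6.t1 both pair. Of the 5 identical genes, T28B4.t1, in an intron of fbxl-4, had 22.7 in replicate 1 and 48.4 in replicate 2, and K08B5.t1 had 20.6 and 12.6. K05G3.t1, T25D1.t2 and T27B1.t1 had no entry within 200 bp in either replicate list. Around T25D1.t2 and T27B1.t1 only 30% and 49.5% of the words are single copy, against 85.4% around K05G3.t1. Whether flank, body or placement of reads sets these values was not tested.

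The promoter words did not separate the genes with and without a summit. Nearly all X tRNA genes held the B box word and were followed by a run of T, so neither could do so. The B box word GTTCNANNC, searched on the strand of the gene, was in 268 of the 276 genes (97.1%), starting a median of 21 bases before the 3′ end. It was in 119 of the 122 genes with a summit and in 149 of the 154 without. The 3 genes with a summit and without the word were the proline pair C16B8.t2 and C16B8.t3 (signal 59.5) and the methionine gene E01H11.t1 (93.4). In windows of 72 bases at the starts of 2731 X protein-coding genes, 1.32% held the word on the same strand and 2.78% on either strand; on either strand the share in the tRNA genes was also 97.1%.

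The A box word, a G, 3 free bases, AG, 2 free bases and GG, was in 65 genes (23.6%), 29 with a summit and 36 without, against 3.48% of the same windows, or 8.64% on either strand. The spacing of this word is fixed, so a gene without it may still have an A box. These counts are of the word only. Both boxes were searched separately, and an overlap of the matches was not checked. A run of 4 T lay within 40 bases after the gene in 273 genes (98.9%), all 122 with a summit and 151 without, against 51.5% of such windows after protein-coding genes. On either strand these shares were 99.6% and 77.9%. The base composition just upstream differed slightly. The 50 bases before the gene had a median GC content of 42% (quartiles 36 and 47.5) at genes with a summit and 38% (32 and 45.5) at genes without, so the ranges overlapped widely, and no test was made.

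Along X the share in the thresholded list was lowest in the middle. When the chromosome was divided into 3 equal lengths, the first held 51 genes, of which 30 had a summit (58.8%, 45.2 to 71.2). The middle held 107, of which 34 did (31.8%, 23.7 to 41.1), and the last 118, of which 58 did (49.2%, 40.3 to 58.1). In the strong entries the shares were 60.8%, 43.9% and 43.2% in replicate 1 and 68.6%, 44.9% and 54.2% in replicate 2. The first length was therefore the highest in all 3 lists, while the middle was the lowest in the thresholded list and in replicate 2 and level with the last in replicate 1. The middle also holds 10 of the 17 genes, described below, that were strong in both replicates and absent from the thresholded list. Its low thresholded share therefore depends in part on which genes that list left out. Median signals in the thresholded list were 86.5, 60.7 and 70.8 in the 3 lengths in order.

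Spacing gave a less steady picture. X tRNA genes lie close together, with a median distance of 1161 bp between nearest 5′ ends, against 9082 bp on the autosomes. Of the genes with a neighbour under 500 bp away 37 of 97 had a summit (38.1%), of those at 500 to 5000 bp 43 of 82 (52.4%), and of those further apart 42 of 97 (43.3%). In the replicates the isolated genes were the highest, with 54.6% and 61.9%, and the closest ones had 42.3% and 40.2%. The middle class differed most between replicates, at 42.7% and 58.5%.

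Placement relative to protein-coding genes made little difference in these counts. Outside such genes 75 of 180 had a summit (41.7%, 34.7 to 49.0), inside one on the same strand 24 of 51 (47.1%, 34.1 to 60.5), and inside one on the opposite strand 23 of 45 (51.1%, 37.0 to 65.0). The 3 intervals overlap, and in replicate 1 the order was different, with 47.8%, 45.1% and 44.4%, while replicate 2 had 51.7%, 54.9% and 57.8%. Of the 96 genes inside a protein-coding gene, spread over 68 hosts, 95 lie in introns. The exception, the glutamate gene C28G1.t1 (signal 97.7, and 43.5 and 50.7 in the replicates), touches an exon of C28G1.2. Where under 80% of the 32-base words around the gene are single copy, 17 of 49 genes had a summit (34.7%, 22.9 to 48.7). Elsewhere 105 of 227 did (46.3%, 39.9 to 52.8), so these intervals overlap. The strong entries gave 42.9% against 47.6% in replicate 1 and 32.7% against 57.7% in replicate 2. On the autosomes the thresholded shares were 47.1% and 48.5%.

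**Figure D3:**
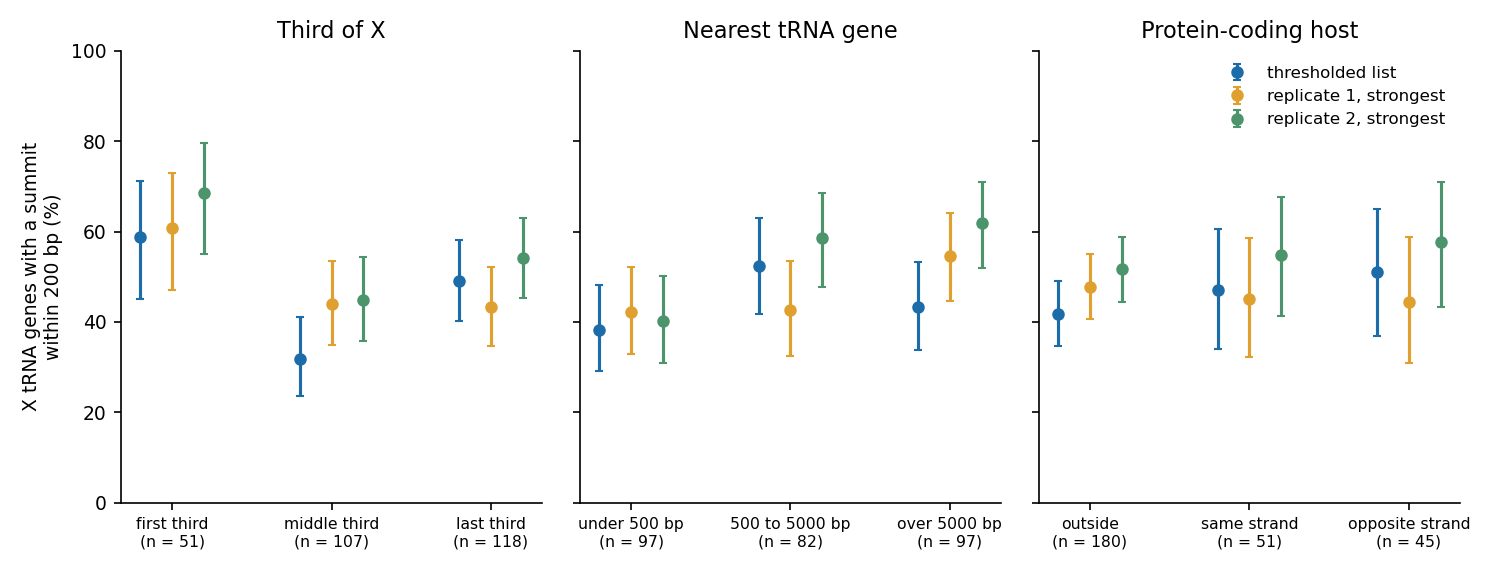
Share of X tRNA genes with a summit within 200 bp (vertical axis, percent) by 3 equal lengths of X, by distance to the nearest tRNA gene and by protein-coding host, in the thresholded list and in the strong entries of each replicate; bars are Wilson 95% intervals over genes. The first length is highest in all 3 lists, at 58.8%, 60.8% and 68.6%, and the host classes overlap.

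Neighbouring tRNA genes form runs, in which 5′ ends lie under 5000 bp apart. X has 97 single genes and 67 runs of 2 or more with 179 genes. The longest, the F22F1 run of 9 genes (X:8149156-8156707), had a summit at the aspartate genes F22F1.t3 (45.3) and F22F1.t5 (51.4) and at the isoleucine gene F22F1.t7 (52.8). Its 3 serine genes and its methionine gene F22F1.t6 had none. F22F1.t1, an aspartate gene, had entries in the replicates (13.8 and 28.4) and none in the thresholded list. All 3 signals are in the lowest part of the X range, below the quartile of 56.3.

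The F28H6 run consists of 6 histidine genes with identical bodies (X:14135045-14137010), of which F28H6.t2 had a summit, with signal 44.9. Its nearest entries had 4.73 in replicate 1 and 40.7 in replicate 2, and it was a strong entry in replicate 2 only. At the other 5 genes single-copy words made up 0% to 58.4% of the sequence, and the part of read placement in these values was not tested. Within an intron run of K01A12.3, 2 of 5 genes shared 1 summit (56.9). The R04E5 run of 5 genes had none in the thresholded list, although the glycine gene R04E5.t4 had 32.2 in replicate 1 and 3.38 in replicate 2. The H08J11 run in ajm-1, equal to these in size, has 5 glutamine genes, of which H08J11.t3 had the summit of 95.1 described above.

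The replicates shared most but not all of the genes with strong entries. The strong entries of both lay at 97 X tRNA genes, which is 75.2% of the replicate 1 set and 66.0% of the replicate 2 set, and 82 genes were in a single set. At autosomal tRNA genes 100 were in both sets, of 124 in replicate 1 and 171 in replicate 2. The overlap was not counted for genes of other kinds, so it is not read as particular to the X tRNA genes. Of the 122 genes with a thresholded summit, 80 were in both sets, 26 in that of replicate 2 only, 14 in that of replicate 1 only and 2 in neither. In the full replicate lists 117 of the 122 had an entry within 200 bp in both. Replicate 1 had none at K01A12.t4, R04E5.t6, F09B9.t2 and R04D3.t4, and replicate 2 had none at C25F6.t2.

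Many genes without a thresholded summit had an entry in another list, where an entry may be background. In the full lists 209 X tRNA genes (75.7%) had an entry within 200 bp in replicate 1, 208 (75.4%) in replicate 2 and 174 (63.0%) in the pooled list. The X genes of other kinds were counted at 11.3%, 13.1% and 10.6% in these lists. No entry lay within that distance in any of the 4 lists at 41 genes, which is 26.6% of those without a thresholded summit. Among the 154 genes without a thresholded summit, 52 had a pooled entry, with signals from 4.0 to 41.4 and a median of 30.7. The highest were the proline genes Y59E1B.t2 (41.4, with 26.4 and 20.8 in the replicates) and ZK678.t3 (41.3, with 19.7 and 16.8) and the lysine gene K11E4.t5 (41.2, with 20.7 and 9.63 at the nearest entries), all just under the lowest thresholded signal of 41.5. The 3 genes with no product given, F47E1.t3, C28G1.t5 and K02D3.t1, had no thresholded summit, and only C28G1.t5 had an entry within 200 bp, in replicate 1 (19.1).

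A group of 17 genes was strong in both replicates and absent from the thresholded list. Of them 5 had a pooled entry within 200 bp and 12 had no pooled entry within 500 bp, 6 of these not within 5000 bp. The leucine gene W02H3.t1 had 57.1 in replicate 1 and 52.3 in replicate 2, and its nearest pooled summit lay at -1454 bp. The threonine gene R01H5.t1 had 36.2 and 67.4, the cysteine gene F42D1.t1 43.3 and 40.8, and the leucine gene C04E7.t1 35.5 and 34.9. Both replicate summits of R01H5.t1 lay inside the gene, 34 and 5 bp from the 5′ end. For W02H3.t1 they lay 31 bp into the gene in replicate 1 and 23 bp upstream of it in replicate 2. These are among the highest of the group. Since the group was chosen for strong entries, with lowest signals of 25.04 and 20.5 in the replicates, nothing is read from its levels.

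Of the 17 genes, 10 lie in the middle length of X, as do 107 of all 276, and 13 are over 5000 bp from another tRNA gene, as are 97 of all 276. Outside protein-coding genes lie 15 of the 17 and 180 of the 276, and at least 80% single-copy words are found at 16 of the 17 and 227 of the 276. The 276 were not chosen for strong entries, so these counts are not like for like. Strong entries lay at 54.6% and 61.9% of the genes over 5000 bp apart in replicates 1 and 2. Over all X tRNA genes it was 46.7% and 53.3%. The gap was counted over entries as well. Of the strong replicate 1 entries at X tRNA genes that had a strong replicate 2 summit within 200 bp, 13 of 85 (15.3%) had no pooled summit within 200 bp. Elsewhere on X it was 3 of 93 (3.23%), at autosomal tRNA genes 4 of 95 (4.21%) and elsewhere on the autosomes 15 of 938 (1.60%). No test was made, and the step that left these places out of the pooled list is not given in the sources used here. With the 17 genes added to those with a thresholded summit, 139 of 276 genes (50.4%) were counted by either measure. This union was formed after the values were seen and can only raise the share. It was not counted for other genes.

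**Figure D4:**
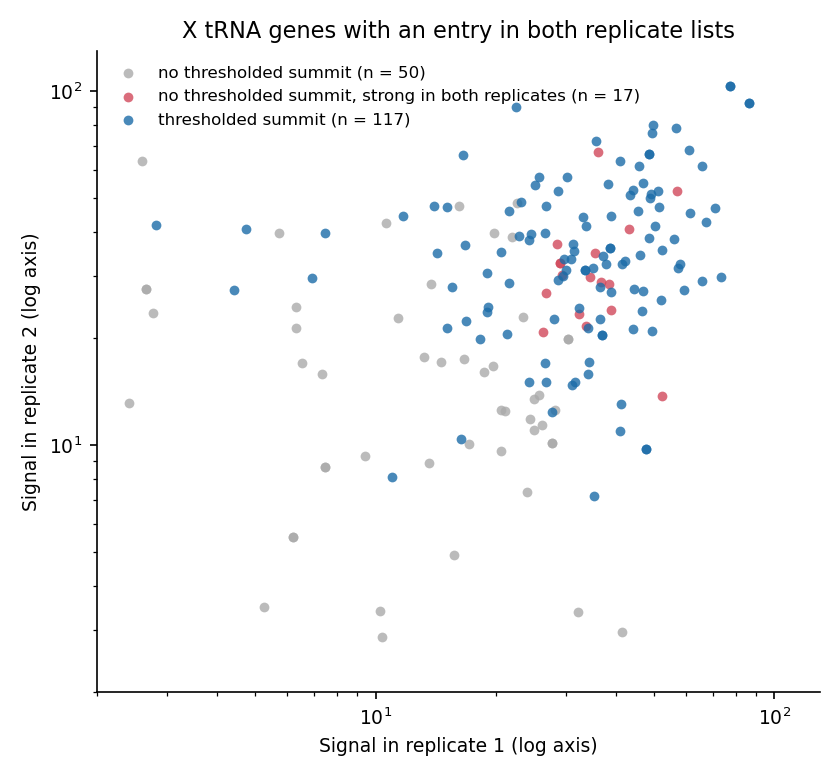
Signal of the nearest entry within 200 bp in replicate 1 (horizontal, log axis) and replicate 2 (vertical, log axis), both in the authors' units, for the 184 X tRNA genes with an entry in both full replicate lists. The 17 red genes are strong in both replicates without a thresholded summit and the 117 blue genes have one; 50 grey genes are the rest, and the red point at 13.8 in replicate 2 is F34H10.t1, whose nearest entry there is not its strongest.

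The comparison with the autosomes turned on chromosome IV. Of the 336 tRNA genes of chromosomes I to V, 162 had a thresholded summit (48.2%, 42.9 to 53.5), and the interval overlaps that of X. The autosomal share rested in part on chromosome IV, where 51 of 71 genes had a summit (71.8%, 60.5 to 81.0). Without it the share was 41.9% (36.1 to 47.9), so that the thresholded share of X lay below or above that of the autosomes according to whether IV was counted. The strong entries gave 36.9% of the autosomal genes in replicate 1 and 50.9% in replicate 2, a mean of 43.9% ± 9.89 (SD, n = 2), against 50% ± 4.61 on X. With IV counted, the direction thus differed between the thresholded list and the replicates, and the replicate ranges overlapped. Without IV the strong entries gave 28.3% (23.2 to 34.0) in replicate 1 and 44.9% (39.03 to 50.9) in replicate 2, a mean of 36.6% ± 11.7 (SD, n = 2). X, with 46.7% (40.9 to 52.6) and 53.3% (47.4 to 59.1), was then higher in both replicates and in the thresholded list, by more than the intervals over genes in replicate 1 and with overlapping intervals in replicate 2 and the thresholded list. No test was made.

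The number of high signals turned on chromosome IV too. The medians were close, 71.2 on X and 72.6 on the autosomes. A signal above the X maximum of 177.7 was found at 38 autosomal tRNA genes, of which 28 lie on chromosome IV. The very highest signals were not on IV, where the maximum was 602. They were 1248 on II, 1035 on V and 849 on I. On X 27 genes exceeded 100 (22.1% of those with a summit), against 55 on the autosomes (34.0%), 37 of them on IV. Without IV the direction turned: 18 autosomal genes exceeded 100 (16.2%), and the median of 63.3 and upper quartile of 85.9 were below those of X, 71.2 and 95.7. Outside IV, 10 autosomal genes lay above the X maximum. The median summit position was 17.5 bp on X and 20 bp on the autosomes. On X 65.2% of the tRNA genes lie outside protein-coding genes, against 41.4% on the autosomes. Part of the genes of both sets share their bodies, and differences of copy number and read placement between chromosomes were not tested.

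**Figure D5:**
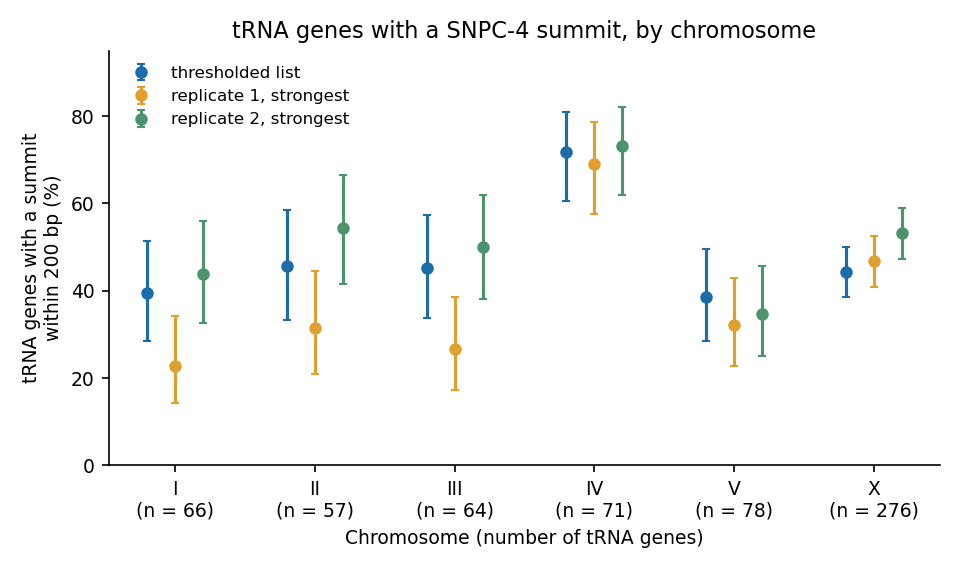
Share of tRNA genes with a SNPC-4 summit within 200 bp of the 5′ end (vertical axis, percent) on each nuclear chromosome, in the thresholded list and in the strong entries of each replicate; bars are Wilson 95% intervals over genes and n is the number of tRNA genes. X at 44.2% in the thresholded list lies among I, II, III and V, which run from 38.5% to 45.6%. In replicate 1 X at 46.7% lies above these 4, which run from 22.7% to 32.1%, in replicate 2 X at 53.3% lies below II at 54.4% and above I, III and V, and IV is the highest in all 3 lists.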

How the data were processed

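SNPC-4 ChIP-seq of 2 biological replicates was analysed from deposited peak lists. In each the deposited signal is the value of the authors' peak caller for a peak; no source used here gives its scale, the caller, the aligner or the cut-off of IDR. The summit is the start of the peak plus the deposited offset. Depth is unknown, since no read counts were used. Lists on ce10 were not used, and no coordinates were converted. Per the labels, the lists given to IDR hold peaks and background.

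Genes and 5′ ends came from Ensembl release 115, and products, symbols and sequences from RefSeq. The thresholded ce11 list gave the main values. Per replicate, the strong entries were the 2345 highest by signal, with ties broken by position. A gene could count as strong through an entry within 200 bp other than its nearest one, whose signal is printed. Single-copy words were those of 32 bases found once in the genome, counted up to 200 bp on each side of the 5′ end. Shares have Wilson 95% intervals, and no test was run: there is 1 group, and genes share summits. Genes were named by rule: the 12 highest signals, the best gene of each product, the 3 nearest on each side of 200 bp, the 4 longest runs, the 3 highest pooled signals without a thresholded summit, the strongest and weakest of the 2 largest identical sets, and genes with no product given. Genes with a name of their own, the phenylalanine genes, the shared summits with unlike products, the genes strong in both replicates, those missing from a replicate list and those without a B box were chosen after their values were seen. The members and lists were chosen with earlier results of these data known. The assignment of summits was tested on simulated data. Alternatives were the distance, a stricter and a looser list, peak overlap, single-copy genes, 1 locus per run of genes under 500 bp apart and each replicate alone. Python 3.11.15, numpy 2.4.6, pandas 2.3.3, scipy 1.17.1 and matplotlib 3.10.9 were used.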

Additional observations from a re-analysis of the deposited data

How the results depend on the processing

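The share of X tRNA genes with a summit, 44.2%, kept within its interval at distances of 100 bp (39.5%) and 500 bp (50%). It also did so by peak overlap (43.5%), over single-copy genes (46.3%) and with 1 locus per run of genes under 500 bp apart (49.8%). It moved to 29.3% with the entries at or above the list's median signal and to 63.0% with any pooled entry. With either replicate left out it ran from 46.7% to 53.3%, and 35.1% of the genes were strong in both, an alternative chosen after seeing the data.

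The autosomal share, 48.2%, moved to 42.3% at 100 bp, 29.8% with those entries, 75.3% with any pooled entry, 36.9% to 50.9% with either replicate left out, and, as alternatives chosen after seeing the data, 29.8% in both replicates and 41.9% without chromosome IV. The median summit position on X, 17.5 bp, moved to 25 bp with those entries, 15 bp with any pooled entry, 22.5 bp by overlap, 26 bp over single-copy genes and 21 to 24 bp with either replicate left out. The same-strand share, 47.1%, moved to 25.5% with those entries. The causes were not tested. No paired analysis was possible because there is a single group. Since the depth is unknown, a gene without an entry may be below detection.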
